A study of Mus musculus with 19 samples.

Results

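The monocyte-like and the neutrophil-like form of myeloid-derived suppressor cell (MDSC) were compared within the adult mouse spleen, across all genes. Of the 19 RNA libraries of the series, 9 were of adult spleen and entered the comparison: 3 of the monocytic form (M-MDSC, replicates 1, 3 and 28) and 6 of the polymorphonuclear form (PMN-MDSC, replicates 1, 2, 3, 32, 33 and 34). The adults were 6 to 8 weeks old. PMN-MDSC were defined as CD11b+ cells with Ly6G and intermediate Ly6C, and M-MDSC as CD11b+ cells without Ly6G and with high Ly6C. Isolation is described in 2 ways by the labels' protocols, once as CD11b beads followed by a sort, and once as Ly6G bead columns for PMN-MDSC and a sort for M-MDSC. Total RNA was sequenced as 50 bp single-end reads. Neither strain, sex nor the number of animals behind a library is given in the labels, and no treatment is named for the adults. Whether replicates came from separate animals is not stated either, so the p-values reflect only how far libraries of 1 group lay from each other, and part of that may be technical. The other 10 libraries, 5 of each cell type from newborns of 7 days, helped to estimate the spread between libraries and served to test whether a cell type difference was particular to adults.

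MDSC are defined by function, as myeloid cells that restrain T cells, and by surface markers that they share with ordinary neutrophils and monocytes. Neutrophils are short-lived cells that carry ready-made granules and answer to the growth factor G-CSF and to formyl peptides and CXCR2 ligands. Classical monocytes depend on M-CSF and CCR2, carry less granule protein and can become macrophages or dendritic cells. In the spleen both circulate through the red pulp beside resident red pulp macrophages, B cells and T cells.

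Depth was unequal. Total counts were 827744 to 2732323 in the 3 PMN-MDSC libraries that the labels place in batch 1 and 14026193 to 45135933 in the 3 of batch 2. M-MDSC libraries 1 and 3 (batch 1) held 1818926 and 2056059 counts, and library 28, the only one of M-MDSC in batch 2, held 16896783. Library 28 stood apart from the rest. It lay at 229.9 on the first principal component of log2 CPM, against 38.66 and 52.85 for the other M-MDSC libraries and -59.89 to -48.11 for PMN-MDSC. With more counts than the other M-MDSC libraries it held fewer detected genes, 11549 against 14212 and 13936, and 17 of 5004 genes at 20 CPM or more in all other adult libraries had 0 counts in it. PMN-MDSC libraries 1 and 32, 2 and 33, and 3 and 34 resembled each other across batches (deviations from the batch means correlated across genes at 0.577 to 0.617, against -0.435 to -0.186 for other pairs across batches). Deviations of 3 libraries from their own mean cancel out, so the negative values partly follow from the positive ones and are no separate contrast. If they share a source, the 6 libraries hold 3 sources and the tests overstate the evidence. Counts over all genes are therefore also given without M-MDSC library 28 and without the batch 1 partners of the matched libraries. The latter also left out newborn PMN-MDSC libraries 2 and 3, treated as partners of newborn libraries 37 and 38. No PMN-MDSC library of batch 1 then remained, and the batch shift was estimated from M-MDSC alone.

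**Figure D1:**
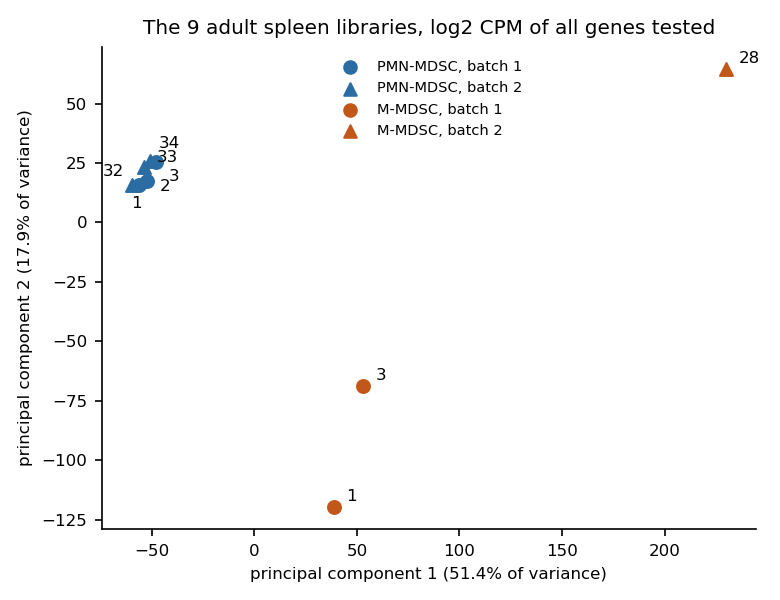
The 9 adult libraries on the first and second principal components of log2 CPM over all genes tested, with the share of variance on each axis; colour marks the cell type, the shape the labelled batch and the number the replicate. The 6 PMN-MDSC libraries lie together at the left, M-MDSC libraries 1 and 3 at 38.66 and 52.85 on the horizontal axis and library 28 alone at 229.9.

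Of 12943 genes tested by edgeR's quasi-likelihood test, 3772 (29.1%) differed between adult M-MDSC and PMN-MDSC at an adjusted p under 0.05, here termed called. Of these, 2158 were higher in M-MDSC (16.7% of genes tested) and 1614 lower (12.5%). These shares are the background for every gene group below. The median log2 fold change, M-MDSC over PMN-MDSC, was -0.13 over all genes tested. A difference of at least 2-fold was called for 1259 genes higher and 1145 lower, and of at least 16-fold for 93 higher and 298 lower. Among the called genes, 3730 (98.9%) had the same sign in both batches. The calls came from these same libraries, and batch 2 holds 1 M-MDSC library, so this share is no independent replication. All 3 M-MDSC libraries lay above all 6 PMN-MDSC libraries for 1807 genes (14%) and below them for 2038 (15.7%).

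Counts moved more than signs under other treatments of the libraries. Without M-MDSC library 28, 2250 of 13278 genes (16.9%) were called, 1334 higher (10%) and 916 lower (6.9%), and 1997 of them were among the 3772. Without the batch 1 partners of the matched libraries, 2407 of 15926 genes (15.1%) were called, 1166 higher (7.32%) and 1241 lower (7.79%), with 1797 shared. In a fit of the 9 adult libraries alone, 3080 of 12002 genes (25.7%) were called, 1801 higher (15%) and 1279 lower (10.7%), with 2784 shared. The share of called genes that were higher in M-MDSC was 57.2%, 46.1% by DESeq2's Wald test, 38.1% with matched libraries as a block in limma and 32.4% in batch 2 alone, so the balance between higher and lower calls depended on the treatment.

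**Figure D2:**
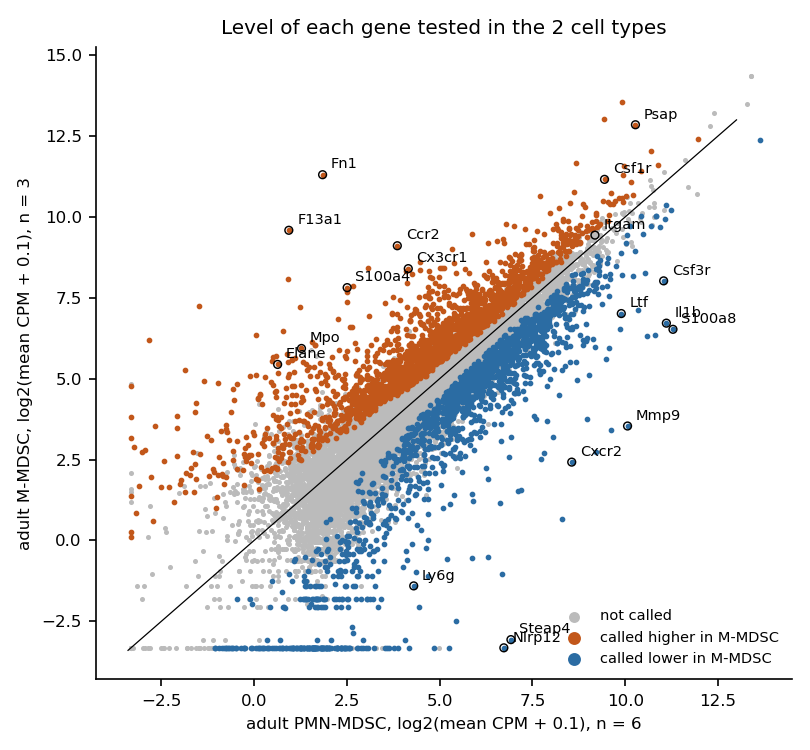
Mean level of each gene tested in adult PMN-MDSC (horizontal, n = 6) and M-MDSC (vertical, n = 3) as log2(mean CPM + 0.1), with called genes in colour and a line of equal level. Fn1 and F13a1 lie far above the line; Nlrp12 and Steap4 lie at the lower edge, at 0 and 1 counts in M-MDSC.

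The sort markers followed the labels at the RNA level. Ly6g, the surface antigen of mouse neutrophils, had 2155 counts in the 6 PMN-MDSC libraries and 2 in the 3 of M-MDSC, a ratio of 238 (95% interval 65.9 to 1970, counting error only). Ly6c2, an Ly6C gene of classical monocytes, was at 32.2 to 52.6 CPM (reads relative to the scaled library size; median 37.4) in PMN-MDSC and at 810, 305 and 426 CPM in M-MDSC libraries 1, 3 and 28, the order kept throughout. Its log2 fold change was 3.61 ± 0.26 (SE, as in all that follow; adjusted p = 1.13e-08). Itgam, which encodes CD11b, was at 524 to 632 CPM in PMN-MDSC and at 690, 748 and 641 CPM in M-MDSC, a difference that was not called (log2 fold change 0.22 ± 0.14, adjusted p = 0.258). The groups did not overlap for any of these genes.

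Markers of the sorted cells and of other spleen cells both differed. Of 15 neutrophil markers, 14 were lower in M-MDSC (median log2 fold change -5.72), and their levels summed to between 9170 and 11600 CPM in a PMN-MDSC library but 704 to 947 CPM in one of M-MDSC. All 12 classical monocyte markers were higher (median 3.48), with a summed level of 1080 to 1740 CPM against 8320 to 8630 CPM. B cell markers were lower in M-MDSC for 12 of 13 tested, with sums of 4640 to 7360 CPM against 1070 to 2650 CPM. Red pulp macrophage markers were lower for 11 of 12, with sums of 2310 to 4840 CPM against 816 to 1070 CPM. T cell markers summed to 98.7 to 212 CPM against 179 to 540 CPM (median log2 fold change 0.88). Of the 15, only Thy1 was called, higher, and not without M-MDSC library 28 or 3 (adjusted p = 0.0978 and 0.0761). In the fit of the 9 adult libraries alone 5 were called higher, and without M-MDSC library 1, 4 were. Without the batch 1 partners of the matched libraries 0 were higher and 1 lower. Markers of B cells and of red pulp macrophages were thus higher in the PMN-MDSC libraries than in M-MDSC. Calls of T cell markers depended on the treatment of the libraries. The part of all these cells in the results below was not tested. In RNA of bulk cells, fewer cells of a type and less RNA per cell cannot be told apart.

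Genes of matrix and coagulation, and of signalling, were among those with the largest differences towards M-MDSC. Fn1, the matrix glycoprotein fibronectin, was at 2.19 to 4.97 CPM (median 3.56) in PMN-MDSC and at 1770, 3190 and 2640 CPM in M-MDSC. Its log2 fold change of 9.42 ± 0.33 (adjusted p = 1.01e-12) was among the 15 largest that met the naming rule. F13a1, the catalytic subunit of coagulation factor XIII, was at 1.44 to 2.19 CPM (median 1.85) and at 975, 710 and 622 CPM (8.78 ± 0.29, adjusted p = 7.75e-13). Both sets of libraries were far apart, with no overlap. Vcan, the large matrix proteoglycan versican, was at 0 to 0.761 CPM in PMN-MDSC and at 289, 140 and 26.9 CPM in M-MDSC (7.99 ± 0.63, adjusted p = 2.64e-08), lowest of the M-MDSC libraries in 28. Other genes among the 15 encode signalling proteins: Rab36, a small GTPase (7.41 ± 0.67), Arhgef37, of a family of guanine nucleotide exchange factors (7.36 ± 0.38), Plcb1, a phospholipase C (6.23 ± 0.64), Adora2b, an adenosine receptor (5.68 ± 0.90), and Cd300lg, of the CD300 receptor family (5.84 ± 0.28). Scarf1, a scavenger receptor, was at 0 to 0.393 CPM in PMN-MDSC and 14.8, 8.3 and 19.4 CPM in M-MDSC (6.83 ± 1.10, adjusted p = 0.000129).

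In the other direction several genes had no counts in M-MDSC. Nlrp12, a NOD-like receptor of myeloid cells, had 11053 counts in PMN-MDSC (78.9 to 126 CPM, median 113) and 0 in the 3 M-MDSC libraries. Against a floor of 3 counts over the group, which is 0.139 CPM in M-MDSC, it was at least 815-fold lower there. This floor, and so the folds and ratios in this paragraph, rest largely on library 28, which stood apart. Its scaled library size was 17366462, against 1823409 and 2409211 in libraries 1 and 3. Within libraries 1 and 3 alone, 3 counts are 1.65 and 1.25 CPM. Steap4, a metalloreductase of iron and copper uptake, had 13828 counts in PMN-MDSC and 1 in M-MDSC, a ratio of 3060 (95% interval 549 to 121000). Cxcr1, a chemokine receptor of neutrophils, had 890 counts and 0 counts, at least 65.7-fold lower in M-MDSC, and Cd63, the tetraspanin of granule membranes, 1130 and 0, at least 83.4-fold lower. Sycp2, a gene of the meiotic synaptonemal complex, had 3004 counts and 0, at least 222-fold lower, and Amer2, a negative regulator of Wnt signalling, 1172 and 0, at least 86.5-fold lower. Phospho1, a phosphatase known from bone mineralisation, had 9927 counts against 3 (ratio 732, interval 251 to 3550). Mgam, the starch-digesting enzyme maltase-glucoamylase, was at 71.4 to 85 CPM in PMN-MDSC and at 0.548, 1.25 and 0 CPM in M-MDSC (-8.42 ± 0.53, adjusted p = 2.52e-09). None of these genes had overlapping groups.

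Upstream sequence was read from RefSeq for the genes of largest difference in each direction that held a match to 1 of 4 motifs of myeloid transcription factors. Elane and Prtn3, neighbours on chromosome 10 that encode neutrophil elastase and proteinase 3, are shown for the higher genes and Nlrp12 and Steap4 for the lower. Each is given for the 250 bases before the start on GRCm38.p6, 5′ to 3′ on the strand of the gene, with the match in capitals. Elane (chr10:79886062-79886311, plus strand) and Prtn3 (chr10:79879417-79879666, plus strand) held the PU.1 motif GAGGAAGT, from 85 to 78 and from 95 to 88 bases before the start. Nlrp12 (chr7:3249741-3249990, minus strand) and Steap4 (chr5:7960222-7960471, plus strand) held the C/EBP motif TTGCNNAA, from 70 to 63 and from 87 to 80 bases before it.
Elane: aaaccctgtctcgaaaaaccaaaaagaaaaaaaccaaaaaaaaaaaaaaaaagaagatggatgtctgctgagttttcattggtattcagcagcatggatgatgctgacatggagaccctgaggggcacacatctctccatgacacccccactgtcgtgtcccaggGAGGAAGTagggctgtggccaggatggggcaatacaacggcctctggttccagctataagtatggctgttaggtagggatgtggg
Prtn3: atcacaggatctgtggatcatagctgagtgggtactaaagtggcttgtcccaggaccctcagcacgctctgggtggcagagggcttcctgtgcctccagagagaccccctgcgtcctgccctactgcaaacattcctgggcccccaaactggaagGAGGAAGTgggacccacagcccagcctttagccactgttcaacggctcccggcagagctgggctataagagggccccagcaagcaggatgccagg
Nlrp12: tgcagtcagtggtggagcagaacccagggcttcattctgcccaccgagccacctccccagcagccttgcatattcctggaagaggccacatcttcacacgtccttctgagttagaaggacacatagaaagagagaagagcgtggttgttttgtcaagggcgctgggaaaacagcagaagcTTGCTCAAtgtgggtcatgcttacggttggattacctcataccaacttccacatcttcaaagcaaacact
Steap4: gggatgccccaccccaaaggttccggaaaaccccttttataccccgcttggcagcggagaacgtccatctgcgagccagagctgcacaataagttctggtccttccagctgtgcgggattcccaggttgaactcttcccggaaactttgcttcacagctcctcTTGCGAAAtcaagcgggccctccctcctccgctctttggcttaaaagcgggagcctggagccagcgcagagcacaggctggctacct
PU.1 is a myeloid factor of the ETS family, and C/EBP factors act in granulocytes and monocytes. Such matches were not rare, and they are letters in a window, not sites shown to be bound. On either strand of windows from 250 bases before to 50 after the start, GAGGAAGT occurred in 4.46% of the 1614 genes higher in M-MDSC that had a window, 6.19% of the 1195 lower genes, 4.23% of the 9128 genes tested and 3.2% of all 32851 windows. TTGCNNAA occurred in 10.5%, 11.7%, 10.3% and 10.8%. A motif of the interferon response occurred in 3.53%, 4.85%, 4.03% and 3.44%, and a composite motif of ETS and IRF factors, whose letters overlap with it, in 2.97%, 3.6%, 2.9% and 2.72%.

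Receptors for growth factors divided by lineage. Csf1r, the M-CSF receptor of monocytes and macrophages, was at 528 to 992 CPM (median 587) in PMN-MDSC and at 2060, 1940 and 2870 CPM in M-MDSC (1.71 ± 0.23, adjusted p = 2.07e-05). Csf3r, the G-CSF receptor, was at 1760 to 2370 CPM (median 2140) and at 265, 215 and 298 CPM (-3.02 ± 0.18, adjusted p = 1.37e-09). Neither gene overlapped between the groups, and both receptors kept counts in all 9 libraries. Of 22 receptors of growth factors and cytokines tested, 11 were higher in M-MDSC and 5 lower (median 0.62). The higher ones included Il6ra (1.92 ± 0.14), Tnfrsf1b, a TNF receptor (2.04 ± 0.28), Ifngr1 (1.52 ± 0.15) and Il10ra (1.16 ± 0.16). The lower ones included receptors of interleukin 1: Il1r2, the decoy receptor, was at 162 to 880 CPM in PMN-MDSC and at 37.8, 2.08 and 0.0576 CPM in M-MDSC (-5.65 ± 1.22, adjusted p = 0.00185), and Il1rap, the shared coreceptor, was lower by a log2 fold change of -2.66 ± 0.42. Without library 28, 11 were higher and 3 lower.

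Of 12 transcription factors of the monocyte lineage, 7 were called higher in M-MDSC with all libraries and 1 lower, with a median of 0.90. Without the batch 1 partners of the matched libraries, 2 were higher and 1 lower (median 0.97). By limma-voom with quality weights, 3 were higher and 2 lower. Klf4, which monocyte differentiation needs, was at 38.6 to 139 CPM (median 103) in PMN-MDSC and at 298, 224 and 306 CPM in M-MDSC (1.61 ± 0.33, adjusted p = 0.00134). Irf5, a factor of inflammatory macrophages, was at 137 to 167 CPM and at 374, 406 and 608 CPM (1.67 ± 0.16, adjusted p = 2.19e-07). These groups did not overlap. Irf8, which directs progenitors towards monocytes, differed less, at 223 to 301 CPM against 248, 392 and 473 CPM (0.53 ± 0.17, adjusted p = 0.0266), with overlapping groups. Its call and that of Spi1, the gene of PU.1 (0.62 ± 0.19), were lost without library 28 (adjusted p = 0.292 and 0.513), which left 5 factors higher. Counts of 6 higher and 3 lower were found without M-MDSC library 1. Irf8 was also not called without M-MDSC library 3 (adjusted p = 0.119) or PMN-MDSC library 1, 32 or 33 (adjusted p = 0.0577, 0.0531 and 0.0504), nor Spi1 without PMN-MDSC library 3 (adjusted p = 0.0523). Irf4, which B cells and plasma cells also express, was the member lower in M-MDSC (-1.54 ± 0.31, adjusted p = 0.000932).

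Factors of the granulocyte lineage were called in both directions: 5 of 12 were higher in M-MDSC and 1 lower (median 0.38; 6 and 2 without M-MDSC library 1). Without library 28, 4 were higher and 1 lower, and the median changed sign to -0.23. By limma-voom with quality weights the median was -0.08. Cebpa, the C/EBP factor of early myeloid progenitors, was at 10.2 to 24.1 CPM (median 18.5) in PMN-MDSC and at 172, 198 and 371 CPM in M-MDSC (3.88 ± 0.29, adjusted p = 1.77e-08). Mxd1, a MYC antagonist of mature granulocytes, was at 864 to 2160 CPM (median 1600) and at 148, 48.6 and 42.5 CPM (-4.36 ± 0.43, adjusted p = 4.57e-07). Both genes separated the groups completely, in opposite directions. Cebpe and Gfi1, factors of neutrophil maturation, overlapped between the groups and were not called (0.75 ± 0.41, adjusted p = 0.183, and -0.93 ± 0.47, adjusted p = 0.144). Cebpb, of emergency granulopoiesis, was higher (0.98 ± 0.26, adjusted p = 0.00776), a call that was lost without library 28 (adjusted p = 0.118).

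Receptors that guide migration differed most clearly by family. Of 14 chemokine receptors, 2 were higher in M-MDSC, 8 lower and 4 not called (median -1.33; 2 and 6 without library 28). The higher ones were those of monocytes. Ccr2, through which monocytes leave the bone marrow, was at 6.58 to 22.7 CPM (median 15.1) in PMN-MDSC and at 700, 656 and 300 CPM in M-MDSC (5.30 ± 0.41, adjusted p = 1.82e-08). Cx3cr1, the fractalkine receptor, was at 14.2 to 24.3 CPM (median 16) and at 259, 361 and 394 CPM (4.26 ± 0.22, adjusted p = 2.31e-10). Among the lower ones was Cxcr2, the neutrophil receptor for CXCL1 and its relatives, at 285 to 472 CPM (median 368) and at 8.77, 6.64 and 0.345 CPM (-6.79 ± 0.66, adjusted p = 3.82e-07). No library of either group reached the range of the other for these receptors. Ccr1, for inflammatory CC chemokines, was lower too (-3.76 ± 0.38, adjusted p = 6.18e-07), as was Cxcr4, the retention receptor for CXCL12 (-0.99 ± 0.20, adjusted p = 0.0011).

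Of 12 receptors for other chemoattractants, 8 were lower in M-MDSC and 1 higher (median -2.79; the same counts without library 28, but 2 higher without M-MDSC library 3 or PMN-MDSC library 32). Fpr1, the receptor for bacterial formyl peptides, was at 47.4 to 70 CPM (median 55.4) in PMN-MDSC and at 1.65, 0 and 0.115 CPM in M-MDSC (-7.77 ± 0.51, adjusted p = 2.94e-09). Its relative Fpr2 (-2.20 ± 0.23) and the C5a receptors C5ar1 (-2.98 ± 0.51) and C5ar2 (-2.60 ± 0.37) were lower as well. Ltb4r1, the high-affinity receptor for leukotriene B4, was the exception, at 20.9 to 44.9 CPM in PMN-MDSC and at 57, 69.3 and 117 CPM in M-MDSC (1.68 ± 0.26, adjusted p = 0.000102). Of 11 chemokine ligands 2 were called, both higher. Without M-MDSC library 1, 1 was higher and 2 lower, and without PMN-MDSC library 3, 1 and 1. Ccl9, a CC chemokine of myeloid cells, was at 16.8 to 25.8 CPM and at 479, 261 and 429 CPM (4.18 ± 0.24, adjusted p = 7.62e-10), without overlap. Cxcl16, the ligand of CXCR6, rested largely on 1 library, at 149, 5.81 and 16.8 CPM against 2.4 to 10.4 CPM (adjusted p = 0.0234). It was not called without M-MDSC library 1 (adjusted p = 0.562) or PMN-MDSC library 3 (adjusted p = 0.053).

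**Figure D3:**
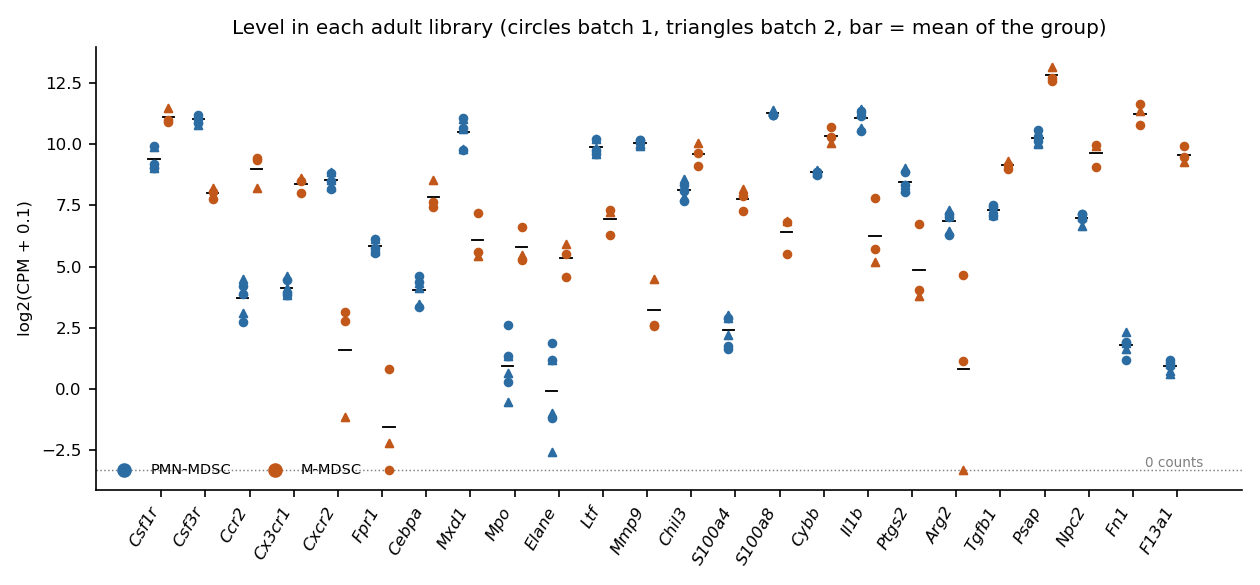
Level of 24 genes in each adult library as log2(CPM + 0.1), PMN-MDSC in blue and M-MDSC in orange, circles for batch 1 and triangles for batch 2, with a bar at the mean of each group and a dotted line at 0 counts. The 2 groups separate for each gene shown; Csf3r, Cxcr2, Fpr1, Mmp9 and Il1b lie lower in M-MDSC, while Ccr2, Cx3cr1, Cebpa, Mpo, Fn1 and F13a1 lie higher.

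Granule proteins went in opposite directions by granule type. Primary granules are filled at the promyelocyte stage, and 5 of 8 of their genes tested were higher in M-MDSC with 1 lower (median 2.40), with or without library 28. Mpo, myeloperoxidase, was at 0.59 to 5.94 CPM (median 1.93) in PMN-MDSC and at 38.4, 99.6 and 44.9 CPM in M-MDSC (4.70 ± 0.44, adjusted p = 2.16e-07). Elane was at 0.0656 to 3.6 CPM (median 1.26) and at 23.6, 45.7 and 60.6 CPM (5.46 ± 0.64, adjusted p = 4.1e-06). Prtn3 was at 0 to 1.42 CPM and at 18.6, 32.8 and 34 CPM (4.96 ± 0.44, adjusted p = 1.05e-07). In all of these, every M-MDSC library lay above every PMN-MDSC library. Srgn, the proteoglycan serglycin that packs granule contents, was the lower member (-1.65 ± 0.34, adjusted p = 0.00114).

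Secondary and tertiary granules are filled later in neutrophil maturation, and 12 of 19 of their genes were lower in M-MDSC with 1 higher (median -2.27). Ltf, lactoferrin, was at 779 to 1180 CPM (median 898) in PMN-MDSC and at 77.3, 161 and 149 CPM in M-MDSC (-2.90 ± 0.41, adjusted p = 3.31e-05). Mmp9, the gelatinase of tertiary granules, was at 974 to 1160 CPM (median 1060) and at 6.03, 5.81 and 22.6 CPM (-6.40 ± 0.42, adjusted p = 3.24e-09). Groups did not overlap for either, nor for Mmp8, the neutrophil collagenase (-3.12 ± 0.21), Lcn2, an iron-scavenging lipocalin (-2.79 ± 0.37), Retnlg, a resistin-like secreted protein (-6.32 ± 0.54), and Adam8, a membrane metalloprotease (-3.98 ± 0.38). Camp, the cathelicidin peptide, was at 133 to 254 CPM and at 60.9, 80.9 and 199 CPM, with library 28 inside the range of PMN-MDSC, and was not called (-0.75 ± 0.46, adjusted p = 0.236). Without library 28 it was called lower (adjusted p = 0.0432), and 16 genes of the list were called lower in place of 12. Chil3, the chitinase-like protein Ym1, was the higher member, at 203 to 381 CPM (median 293) and at 813, 557 and 1060 CPM without overlap (1.50 ± 0.24, adjusted p = 0.000142).

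The stefins, cysteine protease inhibitors of neutrophils whose near-identical genes share reads, were lower for 4 of 9 (median -2.62, or -1.21 with the 2 genes at 0 counts in M-MDSC set at their bound). Without library 28 or PMN-MDSC library 33, 2 were lower. Both limma-voom fits, with quality weights and with matched libraries as a block, called 0 of the 9 (medians -1.39 and -0.77), and 0 also at an unadjusted p under 0.05. The values of single stefins are uncertain. Stfa2l1 was at 34.2 to 53.3 CPM in PMN-MDSC and at 0, 0 and 0.23 CPM in M-MDSC. Of 8 S100 genes, 3 were higher and 3 lower. S100a8, a subunit of the antimicrobial complex calprotectin, was at 2350 to 2740 CPM (median 2480) and at 46.1, 114 and 116 CPM (-4.77 ± 0.51, adjusted p = 1.15e-06), and its partner S100a9 at 1540 to 2040 CPM and at 54.3, 72.2 and 120 CPM (-4.43 ± 0.61, adjusted p = 2.5e-05). S100a4, a calcium-binding protein of motile cells, took the other direction, at 3 to 8.1 CPM (median 5.86) and at 237, 155 and 285 CPM (5.13 ± 0.43, adjusted p = 5.34e-08). None of these S100 genes overlapped. S100a10, the annexin 2 partner, was higher as well (1.73 ± 0.19), and S100a11 lower (-2.62 ± 0.32).

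Mediators by which MDSC act on T cells were divided between the cell types. Of 15 suppression effectors tested, 3 were higher in M-MDSC and 5 lower (median -1.26; 4 and 3 without library 28). Tgfb1, the cytokine TGF-β1, was at 136 to 186 CPM (median 160) in PMN-MDSC and at 504, 564 and 646 CPM in M-MDSC (1.82 ± 0.19, adjusted p = 9.32e-07). Vsir, the checkpoint protein VISTA, was at 299 to 392 CPM (median 316) and at 693, 667 and 775 CPM (1.08 ± 0.15, adjusted p = 2.97e-05), and Havcr2, which encodes TIM-3, was the other higher member (1.47 ± 0.43, adjusted p = 0.0157; 0.101 without M-MDSC library 1). Both Tgfb1 and Vsir were separate in all libraries. Arg2, the mitochondrial arginase, was at 78.6 to 157 CPM (median 133) in PMN-MDSC and at 25.2, 2.08 and 0 CPM in M-MDSC (-4.35 ± 1.03, adjusted p = 0.00392). Entpd1, the ectonucleotidase CD39, was at 151 to 340 CPM (median 258) and at 31.8, 36.1 and 28.2 CPM (-2.96 ± 0.27, adjusted p = 2e-07), and Hmox1, haem oxygenase 1, which red pulp macrophages also express, was lower too (-1.26 ± 0.20). The groups did not overlap for Arg2 or Entpd1. Cd274, the ligand PD-L1, was at 113 to 515 CPM and at 161, 36.1 and 6.56 CPM, overlapping and not called (-2.01 ± 0.78, adjusted p = 0.0605). The best-known effectors of M-MDSC in tumours were near the limit of detection: Arg1 had 0 counts in all 9 adult libraries, and Nos2 had 7 counts in PMN-MDSC and 0 in M-MDSC.

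The NADPH oxidase makes superoxide, another effector of MDSC. Of 8 of its genes, 3 were higher in M-MDSC and 1 lower (median 0.29; 2 and 3 without library 28). Cybb, the catalytic subunit gp91phox, was at 427 to 495 CPM (median 467) in PMN-MDSC and at 1670, 1270 and 1080 CPM in M-MDSC (1.55 ± 0.18, adjusted p = 3.78e-06). Its membrane partner Cyba was higher too (0.96 ± 0.27, adjusted p = 0.0126), but not without library 28 (adjusted p = 0.381). The cytosolic subunit Ncf1 was at 393 to 440 CPM and at 278, 320 and 385 CPM and was not called (-0.38 ± 0.17, adjusted p = 0.0913). Without library 28 it was called lower (adjusted p = 0.0391). Hvcn1, the proton channel that balances the charge of the oxidase, was the lower member (-1.31 ± 0.27, adjusted p = 0.00144); B cells also express it. Of 16 genes of eicosanoid synthesis, 2 were higher and 5 lower (median -0.34; 1 higher without PMN-MDSC library 1, 2, 32, 33 or 34). Ptgs2, the inducible cyclooxygenase of prostaglandin synthesis, was at 266 to 519 CPM (median 322) in PMN-MDSC and at 106, 16.2 and 13.8 CPM in M-MDSC (-3.13 ± 0.65, adjusted p = 0.00138), with no overlap. Ptges, which makes prostaglandin E2, was at 0.99 to 4.46 CPM and at 13.2, 3.74 and 0 CPM and was not called (0.68 ± 0.91, adjusted p = 0.61; higher without library 28, adjusted p = 0.025). Alox5, the lipoxygenase that starts leukotriene synthesis, was lower (-2.63 ± 0.34, adjusted p = 1.29e-05), while its activating protein Alox5ap was higher (1.08 ± 0.18, adjusted p = 0.000178).

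Genes of the interleukin 1 pathway differed in both directions. Il1b was at 1500 to 2760 CPM (median 2370) in PMN-MDSC and at 225, 52.3 and 36.7 CPM in M-MDSC (-4.58 ± 0.56, adjusted p = 6.83e-06). Il1rn, the receptor antagonist (-3.10 ± 0.53, adjusted p = 0.000239), and Il1f9, the cytokine IL-36γ (-5.72 ± 0.40, adjusted p = 6.16e-09), were also lower, so that agonists and the antagonist differed in the same direction, and their groups did not overlap. Parts of inflammasomes were higher: Pycard, the adaptor ASC (1.82 ± 0.24), Gsdmd, the pore-forming gasdermin D (1.2 ± 0.15), and Naip5, a receptor of flagellin (1.43 ± 0.16). Over the 16 genes, 5 were higher and 4 lower, the fourth being the receptor Nlrp12, and the same counts held without library 28. Without M-MDSC library 1, 3 were higher and 8 lower, and without PMN-MDSC library 1, 2, 3 or 34, 3 and 4. Of 19 pattern recognition receptors and adaptors, 6 were higher and 1 lower (3 and 1 without library 28, 3 and 3 without M-MDSC library 1, and 2 lower without PMN-MDSC library 3 or 34). Tlr4, the lipopolysaccharide receptor, was the lower one, at 54 to 114 CPM (median 76) and at 21.9, 18.3 and 11.1 CPM (-2.25 ± 0.32, adjusted p = 4.34e-05), and Nod1 (1.28 ± 0.16) and Nod2 (1.15 ± 0.33; adjusted p = 0.163 without M-MDSC library 1), sensors of peptidoglycan, were among the higher.

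Most cell-surface families held genes of both directions. Of 12 C-type lectin receptors 4 were higher and 4 lower in M-MDSC. Clec4a1 (2.23 ± 0.20) and Clec10a, a galactose-binding lectin (4.03 ± 0.88, adjusted p = 0.00214), were higher, and Clec4d, a receptor of mycobacterial glycolipid (-3.76 ± 0.66), and Mrc1, the mannose receptor of macrophages (-2.07 ± 0.37), were lower. Among 6 Fc receptor genes, Fcgr1, the high-affinity IgG receptor, was at 5.4 to 22.1 CPM (median 11.4) in PMN-MDSC and at 94.9, 85.1 and 104 CPM in M-MDSC (2.78 ± 0.38, adjusted p = 2.13e-05). Fcgr4, another IgG receptor, was lower (-1.87 ± 0.67, adjusted p = 0.0429), a call that was lost without any 1 of 8 of the 9 adult libraries (adjusted p = 0.0506 to 0.0897). Of 19 inhibitory and activating receptors 4 were higher and 6 lower (2 and 7 without library 28), and the TREM receptors split. Trem1, which amplifies neutrophil inflammation, was at 326 to 738 CPM (median 682) and at 143, 19.9 and 24.3 CPM (-3.29 ± 0.60, adjusted p = 0.000409). Trem2, a lipid receptor of macrophages, was at 0 to 1.86 CPM (median 1.61) and at 34.6, 56.9 and 63.6 CPM (5.14 ± 0.33, adjusted p = 2.52e-09). Of 7 Ms4a membrane proteins 5 were higher and 0 lower by edgeR, with or without library 28; 0 were lower at an unadjusted p under 0.05, by DESeq2 or by either limma-voom fit. Ms4a6c was at 24 to 49.3 CPM and at 427, 329 and 267 CPM (3.34 ± 0.30, adjusted p = 1.26e-07).

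Of 18 integrins, selectins and related adhesion genes, 8 were higher in M-MDSC and 2 lower (6 and 2 without library 28, 7 and 4 without M-MDSC library 1). Itgb7, a β chain of gut-homing integrins, was at 64.7 to 119 CPM (median 92.4) in PMN-MDSC and at 518, 572 and 729 CPM in M-MDSC (2.70 ± 0.20, adjusted p = 1.31e-08). Itga5, the α chain of the fibronectin receptor, was at 19.5 to 48.2 CPM (median 29.1) and at 498, 161 and 190 CPM (3.11 ± 0.31, adjusted p = 4.31e-07). Spn, the sialoglycoprotein CD43, was higher as well (2.36 ± 0.20, adjusted p = 6.53e-08), as was Itgal, the α chain of LFA-1 (1.09 ± 0.16, adjusted p = 4.88e-05). Pecam1, of endothelial and myeloid junctions, was among the lower members (-1.09 ± 0.20). Of 14 coagulation and matrix genes, 8 were higher and 1 lower (median 2.23; 6 and 1 without library 28, 7 and 2 without M-MDSC library 1), with F10, coagulation factor X (3.78 ± 0.43), and Pros1, the anticoagulant protein S (4.52 ± 0.60), beside F13a1 and Fn1. Timp2, an inhibitor of metalloproteases, was the lower one (-0.79 ± 0.22, adjusted p = 0.0115).

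Complement genes differed in both directions. The components C3 (2.13 ± 0.16, adjusted p = 1.86e-08) and Cfb of the alternative pathway (3.01 ± 0.61, adjusted p = 0.00115) were higher in M-MDSC. C3 was at 237 to 286 CPM (median 242) in PMN-MDSC and at 1190, 1060 and 1120 CPM in M-MDSC, a wide gap with little spread in either group. Of the 12 genes 5 were lower (3 without M-MDSC library 1 or 3 or PMN-MDSC library 2 or 33), among them C1qa (-2.57 ± 0.73, adjusted p = 0.0133) and C1qb (-2.37 ± 0.37), which are macrophage genes. Red pulp macrophage markers were lower in the same libraries (sums of 816 to 1070 CPM, against 2310 to 4840 CPM). The marker list itself holds C1qa, C1qb, Slc40a1 and Cd163, so its sums are not separate from these genes. The part of these macrophages in the C1q result was not tested. The iron exporter Slc40a1, at 536 to 1010 CPM (median 610) in PMN-MDSC and at 25.2, 61 and 60.2 CPM in M-MDSC (-3.84 ± 0.33, adjusted p = 7.86e-08), and the haemoglobin scavenger receptor Cd163 (-3.61 ± 1.10; adjusted p = 0.054 without library 28) are genes of those macrophages too. Among 11 iron genes, 2 were higher and 4 lower.

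In antigen presentation, edgeR called several MHC class I genes higher, but few of them without library 28. With all 19 libraries edgeR called only 1 of 10 class II genes, lower, when 12.5% of all genes tested were lower. In its fit of the 9 adult libraries alone 6 were called lower, when 10.7% of all genes tested were. All 6 PMN-MDSC libraries lay above all 3 M-MDSC libraries for 6 of the 10, beside 15.7% of all genes tested. Of 14 MHC class I pathway genes 7 were higher in M-MDSC and 0 lower by edgeR (median 0.52), with 1 lower at an unadjusted p under 0.05 and by DESeq2 and 0 by either limma-voom fit. Without library 28, 2 were higher, when 10% of all genes tested were. Psmb10, a subunit of the immunoproteasome, was among the 2 (1.52 ± 0.23, adjusted p = 7.68e-05), and Tap1, the peptide transporter, was not (0.57 ± 0.15, adjusted p = 0.00948; 0.173 without library 28). Of 10 MHC class II genes 1 was called by edgeR, lower, and the median was -0.95. At an unadjusted p under 0.05, 7 were lower, and 6 were called lower by DESeq2, and 4 and 6 by limma-voom with quality weights and with matched libraries as a block. By edgeR 2 were lower without M-MDSC library 3 or PMN-MDSC library 1. H2-Aa, a chain of I-A, was at 1050 to 1320 CPM in PMN-MDSC and at 404, 546 and 691 CPM in M-MDSC, without overlap but not called (-1.09 ± 0.43, adjusted p = 0.0653). B cells express these genes, B cell markers were lower in the same M-MDSC libraries, and their part was not tested.

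Calls among interferon and inflammatory genes depended on the libraries and the method. The shares of all genes tested were 16.7% higher and 12.5% lower, and several of the counts below were near or under them. Of 34 interferon-stimulated genes, 9 were higher in M-MDSC and 3 lower (median -0.14). These counts were 6 and 1 without library 28, 4 and 7 without M-MDSC library 1, 6 and 5 without PMN-MDSC library 3, and 1 lower without M-MDSC library 3 or PMN-MDSC library 1, 2, 32 or 33. Of 13 interferon-inducible GTPases tested 1 was lower by edgeR (median -0.84), 4 at an unadjusted p under 0.05 and 3 by DESeq2. Without library 28 this count was 0 by edgeR, and 1 at an unadjusted p. Without M-MDSC library 1 it was 3, and without M-MDSC or PMN-MDSC library 3 it was 2, while limma-voom called 0 with quality weights and 5 with matched libraries as a block. The antiviral membrane proteins went opposite ways: Ifitm3 was at 61.9 to 164 CPM (median 99) in PMN-MDSC and at 589, 439 and 727 CPM in M-MDSC (2.47 ± 0.26, adjusted p = 1.19e-06), and Ifitm1 was at 171 to 264 CPM (median 237) and at 6.03, 7.89 and 5.3 CPM (-5.15 ± 0.47, adjusted p = 1.71e-07). Of 17 NF-κB genes 4 were higher and 0 lower by edgeR (0 at an unadjusted p under 0.05, 0 by DESeq2 and by limma-voom with quality weights, and 1 with matched libraries as a block), led by Nfkb1, the p50 precursor (0.77 ± 0.12, adjusted p = 8.11e-05). The counts were 2 and 2 without M-MDSC library 1. Of 22 AP-1 and early response genes 2 were higher and 1 lower. Without library 28 edgeR called 0, with 2 higher and 1 lower at an unadjusted p under 0.05. Without M-MDSC library 1, 0 were higher (2 at an unadjusted p) and 4 lower, without M-MDSC library 3, 4 and 1, and without PMN-MDSC library 1, 3, 32 or 34, 1 and 1. DESeq2 called 2 and 2, and limma-voom 0 and 1 with quality weights and 1 and 2 with matched libraries as a block. Of 19 heat shock and ER folding genes, 4 were higher and 3 lower by edgeR. Without library 28, 4 were higher and 0 lower (2 at an unadjusted p under 0.05), while without M-MDSC library 1, 7 were lower and without M-MDSC library 3 or PMN-MDSC library 1 or 32, 1 was. With all libraries, 4 were lower by DESeq2, 2 by limma-voom with quality weights and 4 with matched libraries as a block. Hspa1a, an inducible chaperone with a near-identical copy that leaves its value uncertain, was at 23.4 to 53.1 CPM and at 602, 160 and 268 CPM (3.22 ± 0.48, adjusted p = 5.8e-05).

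With all libraries, edgeR called more genes of division lower than higher, in numbers that depended on the libraries. For G2 and M phase the lower count was near the share of all genes tested, 12.5%. Of 26 G2 and M phase genes 2 were higher and 4 lower by edgeR, with 11 lower at an unadjusted p under 0.05 and by DESeq2. Without library 28, 2 were lower and 0 higher, with 1 higher at an unadjusted p. Without M-MDSC library 3, 10 were lower, without PMN-MDSC library 2 or 33, 2 were, and without PMN-MDSC library 1, 3, 32 or 34, 1 was higher. Counts were 2 higher and 13 lower in batch 2 alone, 1 and 10 by limma-voom with matched libraries as a block, and 0 and 1 with quality weights, where 0 were higher at an unadjusted p too. Of 30 S phase genes 2 were higher and 7 lower (1 and 3 without library 28). They were 3 and 14 in batch 2 alone, 2 and 13 with matched libraries as a block and 3 and 10 by DESeq2, but 1 and 0 by limma-voom with quality weights, with 3 lower at an unadjusted p. Mki67, the Ki-67 antigen of cycling cells, was at 46.8 to 75.6 CPM (median 53.6) in PMN-MDSC and at 81.2, 83.8 and 6.28 CPM in M-MDSC (-0.09 ± 0.54, adjusted p = 0.922). M-MDSC libraries 1 and 3 lay above and library 28 below all PMN-MDSC libraries. Kif23, a kinesin of cytokinesis, was lower (-2.18 ± 0.32, adjusted p = 5.05e-05), as was the replication licensing factor Cdc6 (-4.52 ± 0.72, adjusted p = 0.000117), which was at no more than 7.92 CPM. E2f1, a factor of S phase entry, was higher (1.19 ± 0.25, adjusted p = 0.00134).

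Lysosomal genes stood out among those of organelles and metabolism by their count. Of 26 lysosome genes 19 were higher in M-MDSC and 2 lower (median 1.03), and 15 and 2 without library 28. Psap, the precursor of the saposins that degrade sphingolipids, was at 1040 to 1520 CPM (median 1180) in PMN-MDSC and at 6760, 6220 and 9170 CPM in M-MDSC (2.57 ± 0.19, adjusted p = 1.11e-08). Npc2, a cholesterol carrier of the lysosome, was at 102 to 144 CPM (median 131) and at 1010, 540 and 970 CPM (2.71 ± 0.16, adjusted p = 1.37e-09). Both genes, the protease Ctss (1.61 ± 0.16) and the membrane protein Lamp1 (1.53 ± 0.15) had groups that did not overlap. Ctsd, the aspartic protease cathepsin D, was lower (-1.38 ± 0.25, adjusted p = 0.000481), as was Cd63. Of 39 genes of oxidative phosphorylation 18 were higher and 0 lower by edgeR (median 0.61), with 1 lower at an unadjusted p under 0.05, by DESeq2, by limma-voom with matched libraries as a block and by edgeR without M-MDSC library 3, and 0 by limma-voom with quality weights. Without library 28, 4 were higher, Uqcrc1 of complex III among them (1.26 ± 0.16, adjusted p = 7.64e-06; 0.000331 without it). The 82 ribosomal protein genes tested showed 12 higher and 2 lower (median 0.33), and 1 higher and 2 lower without library 28.

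Of 25 genes of glycolysis and the pentose phosphate pathway, 10 were higher and 5 lower (6 and 5 without library 28, and 3 lower without M-MDSC library 1 or 3 or PMN-MDSC library 2, 32 or 33). The enzymes Tkt, of the pentose phosphate pathway (1.42 ± 0.25, adjusted p = 0.000265), and Eno1, of glycolysis (1.07 ± 0.17, adjusted p = 0.000105), were higher. The transporters were lower: Slc2a3, the glucose transporter GLUT3, was at 344 to 480 CPM (median 432) in PMN-MDSC and at 29.1, 35.7 and 28.3 CPM in M-MDSC (-3.77 ± 0.19, adjusted p = 8.97e-11), and Slc16a3, the lactate exporter MCT4, was lower by -1.57 ± 0.22 (adjusted p = 2.98e-05). Slc2a1, GLUT1, was lower as well (-1.07 ± 0.25). Of 19 sterol and fatty acid synthesis genes 6 were higher and 2 lower (5 and 1 without library 28), among the latter Scd1, the fatty acid desaturase (-1.67 ± 0.33). Of 10 lipid handling genes 3 were higher and 2 lower (1 and 2 without library 28). The scavenger receptors split, with Msr1 at 1.1 to 4.29 CPM and at 76.2, 47.7 and 24.9 CPM (4.43 ± 0.41, adjusted p = 1.9e-07) and Cd36, a fatty acid receptor, lower (-2.61 ± 0.44, adjusted p = 0.000201). Of 15 BCL2 family genes, regulators of apoptosis, 5 were higher (3, with 1 lower, without library 28, and 5, with 1 lower, without M-MDSC library 1 or 3), among them the pore formers Bax (1.02 ± 0.23) and Bak1 (1.42 ± 0.23).

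**Figure D4:**
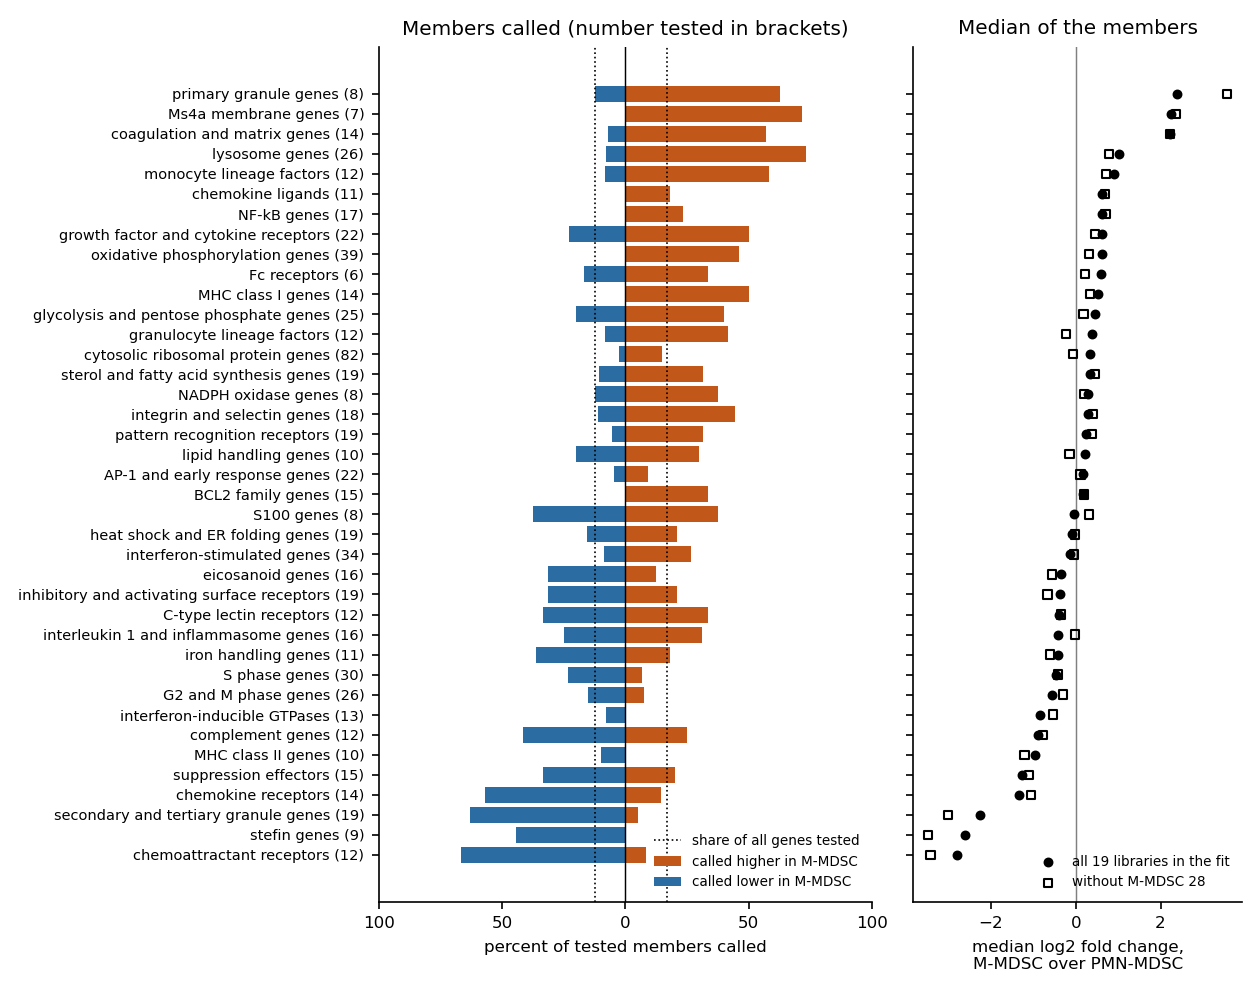
Left, percent of the tested members of each gene group called higher (right of 0) or lower (left of 0) in adult M-MDSC, with dotted lines at the shares of all genes tested, 16.7% and 12.5%; right, the median log2 fold change of the members with all libraries (dots) and without M-MDSC library 28 (squares). Lysosome, coagulation and Ms4a genes lie furthest towards M-MDSC beside primary granule genes, and chemoattractant receptors and secondary granule genes furthest towards PMN-MDSC beside the stefins, whose fitted values include genes at 0 counts.

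The cell type difference was set against that of newborns by the difference of both contrasts in the same model. It was called for 2344 genes (18.1%), in 1488 with a higher value in adults (11.5%) and in 856 with a lower one (6.61%), 1203 of them among the 3772 adult calls, and 282 genes were called in opposite directions at the 2 ages. This balance depended on scaling: 49.5% of the calls were higher in adults by upper-quartile scaling and 24.3% by library size alone, against 63.5% here, with shifts of the median of -0.17 and -0.52. By library size alone, 2646 genes (20.4%) were called, 642 higher (4.96%) and 2004 lower in adults (15.5%), and without adult M-MDSC library 28, 2316 genes (17.4%) were, 1473 higher (11.1%) and 843 lower (6.35%). Kdm5d, a gene of the Y chromosome, was detected in 0 of 9 adult and in 10 of 10 newborn libraries, so age and the mix of sexes cannot be told apart.

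Neutrophil and monocyte genes were among those with a called difference between ages. Chil3 was higher in M-MDSC of adults (1.50) and lower in newborns (log2 fold change -2.78), a difference of 4.28 (adjusted p = 2.21e-07). Cybb did the same (1.55 and -1.45, difference 3.00, adjusted p = 3.33e-07), and with library size alone 5 of the 8 oxidase genes had a called difference in this direction, against 7 here. C3 was 2.13 in adults and -0.52 in newborns (difference 2.65, adjusted p = 4.27e-07), and Tkt 1.42 and -1.13 (2.55, adjusted p = 4.65e-05). Itgam, equal in adults within error, was -2.33 in newborns (2.55, adjusted p = 8.7e-08). Of the factors of the monocyte lineage, 2 went the other way strongly: Klf4 was 1.61 in adults and 5.56 in newborns (-3.95, adjusted p = 3.8e-05), and Irf8 0.53 and 3.18 (-2.64, adjusted p = 1.33e-06). The list as a whole was mixed. Of its 12 factors, 1 had a called difference with a higher value in adults and 3 with a lower one, and the median difference was 0.50.

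Of the 19 secondary granule genes, 11 had a called difference between ages with the higher value in adults (7 without adult M-MDSC library 28, and 7 with 1 lower by library size alone). Ltf was -2.90 in adults and -4.49 in newborns (1.59, adjusted p = 0.0225). Of 30 S phase genes, 14 had a lower value in adults (16 without library 28, 22 by library size alone), Cdc6 among them (-4.52 and 0.88, adjusted p = 0.000118). Of 25 glycolysis genes 12 had a higher value in adults and 1 a lower one (8 and 2 by library size alone). Fn1 differed little beside its size (9.42 and 8.20, difference 1.23, adjusted p = 0.0285), and for Mpo, Elane, S100a4, F13a1, Cx3cr1, Tgfb1 and Psap the difference between ages was not called (adjusted p from 0.119 to 0.741). Among the largest differences between ages, those of Nlrp12 and Steap4 set adult M-MDSC libraries at 0 or 1 counts against newborn contrasts of -4.74 and -3.45.

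**Figure D5:**
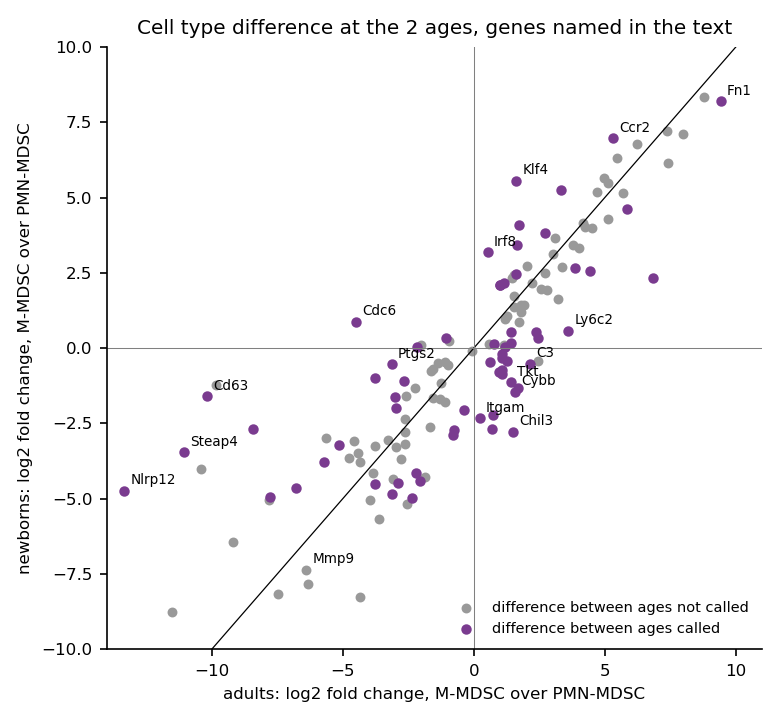
Log2 fold change of M-MDSC over PMN-MDSC in adults (horizontal) and newborns (vertical) for the genes named in the text, in purple where the difference between ages was called and in grey where it was not, with a line of equal values. The fitted values of Nlrp12, Steap4 and Cd63 rest on 0 or 1 counts in adult M-MDSC. Fn1 and F13a1 lie at the upper right near the line; Chil3 and Cybb lie to the right of 0 and below it, and Klf4 and Irf8 lie above the line.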

How the data were processed

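RNA of 19 spleen libraries was sequenced. The table deposited by the authors holds RSEM's estimated counts, not normalized and already whole (rounding changed 0 values). Per the submitters' processing notes, RSEM 1.2.3, the build mm10 and DESeq2 were used; the aligner and the gene annotation were not given in the sources used here. RSEM shares reads among related genes, so near-identical copies are uncertain, and strand use in counting is not stated. The table held 38887 genes, 852 without a symbol.

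Groups, replicate numbers and batches came from the labels. The estimated counts were tested with edgeR 4.0.16 in R 4.3.3 by the quasi-likelihood test: TMM scaling, edgeR's expression filter by group (12943 genes kept), and 1 model of 19 libraries with 4 groups and a batch term, which left 14 residual degrees of freedom. Adjusted p values are Benjamini-Hochberg values over all genes tested, called under 0.05. The SE is the log2 fold change divided by the root of F. CPM are counts scaled by the TMM-adjusted library size. Of genes with 1 to 3 counts in a group, ratios carry exact 95% binomial intervals. With 0 counts, a floor of 3 counts over the group was used (0.139 CPM in M-MDSC, 0.0307 CPM in PMN-MDSC). Intervals and floors cover counting error only. The procedure was tested on simulated data.

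Genes were named by a rule: the 15 largest called differences in each direction with at least 10 CPM in the higher group and the same sign in both batches, up to 6 members of each pathway list and 4 of each marker list by smallest adjusted p, exceptions to a list's direction, and a fixed set of sort, granule and suppression genes. The comparison, the lists and the rule were chosen with earlier results of these data known. A difference between ages is the adult minus the newborn contrast. Promoter windows came from RefSeq on GRCm38.p6 by symbol (9128 of 12943 genes tested). Alternatives covered scaling, filters, the batch term, single batches, DESeq2 1.42.0, limma 3.58.1 with voom, blocks, a 2-fold minimum and each library left out. The replicate numbers shared by M-MDSC and PMN-MDSC were 1 and 3, and the labels do not say that they mark a shared animal. Some results are not reported here.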

Additional observations from a re-analysis of the deposited data

Results flagged for a closer look

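For 63 of the 143 genes named above, the cell type difference itself differed between adults and newborns (edgeR's test of the difference of both contrasts, adjusted p under 0.05). Over all genes tested this share was 18.1%, and the named genes were chosen largely for the size and p of their adult difference. Values are the adult minus the newborn log2 fold change of M-MDSC over PMN-MDSC, so a positive value means a larger value in adults. Age and the mix of sexes cannot be told apart in these groups. Growth factor receptors, cytokines and their receptors had differences of Csf3r -1.39, Il10ra -1.02, Il1rap -1.56 and Il1f9 -1.93. Migration receptors had differences of Fpr2 1.95 and Ltb4r1 3.02, and, lower in adults, of Ccr1 -2.77, Ccr2 -1.68, Cxcr2 -2.15 and Fpr1 -2.83. Lineage factors had differences of Cebpa 1.21, Cebpe 2.96 and Spi1 1.08, and, lower in adults, of Cebpb -1.12, Irf5 -1.76, Irf8 -2.64 and Klf4 -3.95. Granule genes had differences of Camp 1.97, Chil3 4.28, Ltf 1.59 and Mmp8 1.72, and, lower in adults, of Cd63 -8.59. Genes of the oxidase and of eicosanoids had differences of Cyba 1.75, Cybb 3.00, Ncf1 1.67, Alox5ap 1.80 and Ptges 3.37, and, lower in adults, of Ptgs2 -2.60. Suppression genes had differences of Vsir 1.95, and, lower in adults, of Entpd1 -0.98. Innate sensors and inflammasome genes had differences of Gsdmd 1.15, Naip5 0.90 and Nod1 1.70, and, lower in adults, of Nlrp12 -8.61. Surface and adhesion genes had differences of Ly6c2 3.03, Itgam 2.55, Itgal 1.43, Spn 1.84, Mrc1 2.35, Cd300lg 1.23, Scarf1 4.50 and Msr1 1.88, and, lower in adults, of Itgb7 -1.10, Ms4a6c -1.92 and S100a10 -2.35. Complement and matrix genes had differences of C1qb 2.61, C3 2.65, Fn1 1.23 and Timp2 2.11. Genes of metabolism, iron and lysosomes had differences of Eno1 1.26, Slc2a3 0.73 and Tkt 2.55, and, lower in adults, of Ctss -0.85, Slc2a1 -1.39, Steap4 -7.62 and Mgam -5.71. Genes of interferon, NF-κB, division and apoptosis had differences of Ifitm3 2.13, Nfkb1 0.63 and Bak1 1.25, and, lower in adults, of Ifitm1 -1.92, Cdc6 -5.39, Kif23 -2.19 and Bax -1.07. Those of Nlrp12, Steap4 and Cd63 are fitted against 0 or 1 counts in adult M-MDSC and are not sizes. Without adult M-MDSC library 28, 11 of the 63 were no longer called, and without the batch 1 partners of the matched libraries 25.

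In 4 of the 143 genes (2.8%) 1 of the 6 adult PMN-MDSC libraries lay far from the others by Dixon's criterion. For independent values chance gives about 1 in 20. The matched libraries may share a source, so the share found here cannot be judged against that rate. Library 1 was lowest for Trem2 (0 CPM, next 1.51) and highest for Ltb4r1 (44.9 CPM, next 28.7). In library 1, 3 counts are 3.29 CPM, so its 0 for Trem2 lies within the limit of its depth. Library 2 was highest for Mpo (5.94 CPM, next 2.42) and library 33 lowest for Ncf1 (393 CPM, next 423).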

How the results depend on the processing

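Of 134 named genes called between adult M-MDSC and PMN-MDSC, all kept their direction under the 39 alternatives except Cyba, which was at -0.18 (not called) without both M-MDSC library 28 and the batch 1 partners, an alternative chosen after seeing the data. The naming rule picked 275 called genes, so the 134 are a chosen part of them. Of the called genes that it picked and that were not described, 11 changed sign. Under that alternative these were Srp54a (4.98) and Ifit1bl2 (1.75), 2 of the largest differences (-9.32 and -7.64, lower in M-MDSC), Dnajb9, Ptges2, Atp5d and Aurkb. In batch 2 alone they were Ctsc, Stat2, Mapk13 (-11.74, called, against 3.46) and Unc13b (-9.01, called, against 5.53), and by voom with quality weights Melk. Without M-MDSC library 1, Mapk13 was at -10.83 (called) and Unc13b at -3.04. Ptges2 (1.03 with all libraries) was also at -0.2 without library 28 alone (not called). The alternative without both library 28 and the batch 1 partners ended 51 of the 134 calls. Leaving out library 28 alone ended 8, the batch 1 partners alone 14 and the batch 2 partners 17. Without both, adult M-MDSC remained in batch 1 only and adult PMN-MDSC in batch 2 only. The batch shift then came from newborn M-MDSC alone. Ptges, not called, was at -9.05 in batch 2 alone and at -3.47 with matched libraries as a block, and its difference between ages at -6.12 and -0.67.

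Genes called higher in M-MDSC, 2158, came to 1182 by limma-voom with quality weights, 453 with a 2-fold minimum, 779 in batch 1 alone, 1166 without the batch 1 partners, 882 without the batch 2 partners, 478 without library 28 and the batch 1 partners, and 1334 to 2435 with 1 library left out. Genes called lower, 1614, came to 2582 by DESeq2's Wald test, 638 by voom with quality weights, 3267 with matched libraries as a block, 391 with a 2-fold minimum, 589 in batch 1 alone, 4367 in batch 2 alone, 491 without the batch 2 partners, 450 without library 28 and the batch 1 partners, and 916 to 2846 with 1 library left out. The extremes came without M-MDSC library 28 (916) and library 1 (2846).

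Differences between ages with a higher value in adults, 1488, came to 642 by library size alone, 256 with a 2-fold minimum, 262 in batch 1 alone, 753 and 488 without the batch 1 and the batch 2 partners, 676 without library 28 and the batch 1 partners, and 1332 to 1773 with 1 library left out. Those with a lower value, 856, came to 2004 by library size alone, 1441 by DESeq2's Wald test, 1313 with matched libraries as a block, 125 with a 2-fold minimum, 146 in batch 1 alone, 2465 in batch 2 alone, 215 and 210 without the batch 1 and the batch 2 partners, 187 without library 28 and the batch 1 partners, and 641 to 1177 with 1 library left out. In all of these the cause was not tested.

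With a replicate block, 2249 genes were called higher and 1833 lower in adult M-MDSC, and 1472 and 888 for the difference between ages. The pairing was checked on libraries 1 and 3: deviations of same-numbered libraries correlated at 0.284 and 0.276, but with 2 pairs per group the others mirror these at -0.276 and -0.284, so this check cannot decide, and the labels do not say what the number marks. Depth limits genes of low level in batch 1. Other limits are the 3 M-MDSC libraries, of which 1 stood apart, and matched PMN-MDSC libraries that may share a source.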
